A study of Mus musculus with 6 samples.

Results

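The genes described here are the fibronectin type III domain containing (FNDC) genes Fndc1, Fndc3a, Fndc3b, Fndc4, Fndc5 and Fndc10, and Adgrf5, which encodes an adhesion G protein-coupled receptor also known as GPR116. They were chosen by gene symbol, and 6 of the 7 were matched to the 27482 gene symbols of the count table. Fndc4, for which the vector is named, was not analysed here, and the labels of the vectors are taken as given. Expression was measured by RNA-seq in 6 libraries labelled as mouse heart, from male mice according to the series title. The 3 libraries labelled AAV9-hFNDC4 came from mice given an adeno-associated virus serotype 9 vector for FNDC4 overexpression, and the 3 labelled AAV9-CTRL from mice given a control AAV9 vector. Both groups underwent cardiac ischemia/reperfusion (I/R), in which blood flow to the heart is stopped for a time and then restored, and hearts were collected 24 h after it. The promoter and dose of the vectors, the age and strain of the mice and any pooling of tissue are not stated in these sources. A table of mouse gene symbols need not count reads of a human transgene.

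FNDC proteins carry the fibronectin type III fold, a small beta sandwich domain first known from fibronectin. FNDC4 and FNDC5 are close relatives made as membrane proteins whose outer part is shed. The shed part of FNDC5 is irisin, a factor released by muscle that acts through integrins containing the alpha V chain, and the shed part of FNDC4 has been described as a ligand of ADGRF5 in fat tissue. ADGRF5 signals through G proteins and is best known from lung alveolar type II cells, where it restrains surfactant, and from capillary endothelium.

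Total counts were 32975817 to 36074046 per library, and the number of genes with a count was 18717 to 18863 under AAV9-hFNDC4 and 20431 to 20870 under AAV9-CTRL. Levels are given as CPM, the counts scaled to library size after TMM normalization of library sizes, and between genes as CPM per kilobase of exon. The markers of heart muscle went against the tissue label, since 1 of 12 cardiomyocyte markers (Tnnt2) reached 1 CPM in at least 3 libraries, and Nkx2-5 and Pln had 0 counts in all 6. Of the other cell types, 2 of 16 endothelial, 1 of 8 alveolar type II, 3 of 12 leukocyte, 6 of 11 measured fibroblast and 2 of 9 measured pericyte and smooth muscle markers reached 1 CPM. The groups are therefore named by their labels, and no level is assigned to a cell type. In bulk RNA, fewer cells of a type and less RNA per cell cannot be told apart. The labels do not tie each library to its own animal, so p-values reflect only how these libraries vary, and that may be technical variation. Values after ± are SD with n = 3 libraries, and higher or lower refers to AAV9-hFNDC4 against AAV9-CTRL.

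Adgrf5 and Fndc3b were both higher in the libraries labelled AAV9-hFNDC4, so the sequences before their start sites are shown here, with the core of the hypoxia response element in capitals because the series title names HIF1A. The core was searched on both strands as ACGTG or GCGTG, and a match to ACGTG can lie within the E-box CACGTG. Each window holds the 250 bases before a RefSeq start on GRCm38.p6, written 5′ to 3′ on the strand of the gene. The Fndc3b window lies inside the GENCODE span of that gene, which reaches to 27711307, so the 2 annotations differ in its start.
Fndc3b, chr3:27710453-27710702, minus strand: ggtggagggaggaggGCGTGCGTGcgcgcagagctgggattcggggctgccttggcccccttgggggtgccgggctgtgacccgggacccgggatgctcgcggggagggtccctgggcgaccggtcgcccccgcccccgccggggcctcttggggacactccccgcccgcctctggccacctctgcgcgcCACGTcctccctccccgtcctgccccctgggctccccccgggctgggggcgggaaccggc
Adgrf5 upstream start, chr17:43360181-43360430, plus strand: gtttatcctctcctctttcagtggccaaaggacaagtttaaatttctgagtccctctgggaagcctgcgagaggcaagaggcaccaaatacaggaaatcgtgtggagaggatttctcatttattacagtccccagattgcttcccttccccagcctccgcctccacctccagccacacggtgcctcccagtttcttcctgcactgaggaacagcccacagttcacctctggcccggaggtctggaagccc
Adgrf5 downstream start, chr17:43389216-43389465, plus strand: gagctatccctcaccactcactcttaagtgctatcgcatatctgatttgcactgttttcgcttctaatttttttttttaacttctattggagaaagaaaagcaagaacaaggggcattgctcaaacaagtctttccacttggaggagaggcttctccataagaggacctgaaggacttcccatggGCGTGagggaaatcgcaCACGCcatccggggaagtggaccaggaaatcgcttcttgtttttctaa
The Fndc3b window held 1 ACGTG match, beginning 60 bases before the start, and 2 GCGTG matches that share a base, beginning 235 and 231 bases before it. The upstream Adgrf5 window held 0 matches, and the window of the downstream start held 2 GCGTG matches, beginning 65 and 48 bases before it. Either form of the core was found in 38.6% of 32851 such windows. GC content was 79.2% in the Fndc3b window and 54.4% and 44.8% in the Adgrf5 windows, against a median of 52.4% over all windows. The Fndc3b window also held 3 GC boxes (GGGCGG, either strand), a motif present in 32.7% of windows, and neither Adgrf5 window held one. No window was available for Fndc3a or Fndc10, so these genes were not searched. The windows of 2 members with few counts held matches too. That of Fndc5 had 1 ACGTG, 1 GCGTG and 3 GC boxes at a GC content of 80.8%, and that of Fndc1 had 1 GCGTG, 1 GC box and 1 TATA box (TATAAA) at 56.0%. These are matches of letters, and counts per gene do not show which start was used.

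Adgrf5 (chromosome 17, 43360451 to 43459557 on GRCm38, protein-coding) was higher in the libraries labelled AAV9-hFNDC4. Its raw counts there were 300 in replicate 1, 405 in replicate 2 and 315 in replicate 3. In the libraries labelled AAV9-CTRL they were 207, 153 and 145. The groups did not overlap, and AAV9-hFNDC4 replicate 2 was the highest library. The mean was 9.26 ± 1.72 CPM against 5.07 ± 0.841 CPM, which is 1.83-fold higher or 0.87 on the log2 scale with an SE of 0.21 (quasi-likelihood F test of edgeR, Benjamini-Hochberg adjusted p = 0.00515). With the length trend of each library removed it did not pass (0.35, adjusted p = 0.161, range 0.000362 to 0.161 over its alternatives). Per length this receptor stood low, at 1.07 ± 0.198 against 0.584 ± 0.0969 CPM per kilobase, above 16.7% of the 13561 tested genes with a length.

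Markers of the cell types known for Adgrf5, and of pericytes and smooth muscle, are given here beside it. Summed over 16 endothelial markers, the level was 4.04 to 5.64 CPM under AAV9-hFNDC4 and 4.55 to 6.58 CPM under AAV9-CTRL. Of the 16, 6 had a higher mean level and 8 a lower one, and 0 of the 5 tested were called in either direction. Pecam1, the most abundant of them, had 135 counts over the 3 libraries against 224, and Mmrn2 had 39 against 15. Cdh5, the cadherin of endothelial junctions, had 1 count over the 3 libraries against 5, and Emcn and Cldn5 had 0 counts in all 6 libraries. Adgrl4, an adhesion receptor of endothelium, had 0 counts against 1. Among alveolar type II markers the surfactant gene Sftpc had 0 counts against 9 and Sftpb 1 count against 0, while Napsa, a protease, made up most of the list sum of 62.7 to 74.9 CPM against 57.2 to 88.4 CPM. Abca3, the lipid transporter of lamellar bodies, had 136 counts against 33 and was higher (log2 fold change 1.87, edgeR adjusted p = 0.021), with 14.1% of its exon bases shared with D330041H03Rik on the other strand. Markers of pericytes and smooth muscle summed to 568 to 636 CPM against 284 to 345 CPM, but 2 of the 9 measured had a higher mean level and 7 a lower one. The genes Cspg4 (42975 counts against 23613) and Pdgfrb (18704 against 8134) made up nearly all of the sum. Notch3, at 21 counts against 113 (edgeR adjusted p = 0.00663), and Tagln, at 18 against 57 (0.0357), were lower, and Rgs5 had 7 counts against 9. Their part in the Adgrf5 result was not tested.

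Fndc3b (chromosome 3, 27416162 to 27711307, protein-coding), an endoplasmic reticulum membrane protein with fibronectin type III repeats that is known from adipocyte and bone cell differentiation, was also higher. Its raw counts were 5650, 5816 and 6192 in AAV9-hFNDC4 replicates 1 to 3, and 4542, 2913 and 4180 in AAV9-CTRL replicates 1 to 3. The lowest AAV9-hFNDC4 library lay above the highest AAV9-CTRL library, and AAV9-CTRL replicate 2 was well below the other two of its group. The mean was 160 ± 8.68 CPM against 116 ± 20.7 CPM, which is 1.37-fold higher or 0.46 on the log2 scale with an SE of 0.13 (quasi-likelihood F test of edgeR, adjusted p = 0.0131). Without AAV9-CTRL replicate 2 the log2 fold change was 0.32 and still passed. With the length trend removed it was 0.033 and did not (adjusted p = 0.818, range 0.000653 to 0.818 over its alternatives).

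Fndc3a (chromosome 14, 72537946 to 72710003, protein-coding), the paralog of Fndc3b that is needed for the adhesion of sperm cells to Sertoli cells, went the other way without passing the test. Its raw counts were 3084, 3831 and 3339 in AAV9-hFNDC4 replicates 1 to 3, and 4751, 3068 and 3904 in AAV9-CTRL replicates 1 to 3. The groups overlapped, since AAV9-CTRL replicate 2 lay below AAV9-hFNDC4 replicate 2 in CPM. The mean was 93.1 ± 12.1 CPM against 117 ± 19.8 CPM, or -0.33 on the log2 scale with an SE of 0.14 (quasi-likelihood F test of edgeR, adjusted p = 0.068). It passed without AAV9-CTRL replicate 2 at -0.45 (adjusted p = 0.0104) and without AAV9-hFNDC4 replicate 2 at -0.43 (adjusted p = 0.0338), in a range of adjusted p from 0.000611 to 0.316 over its alternatives. Of its exon bases, 1.22% are shared with Gm16549 on the other strand.

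**Figure D1:**
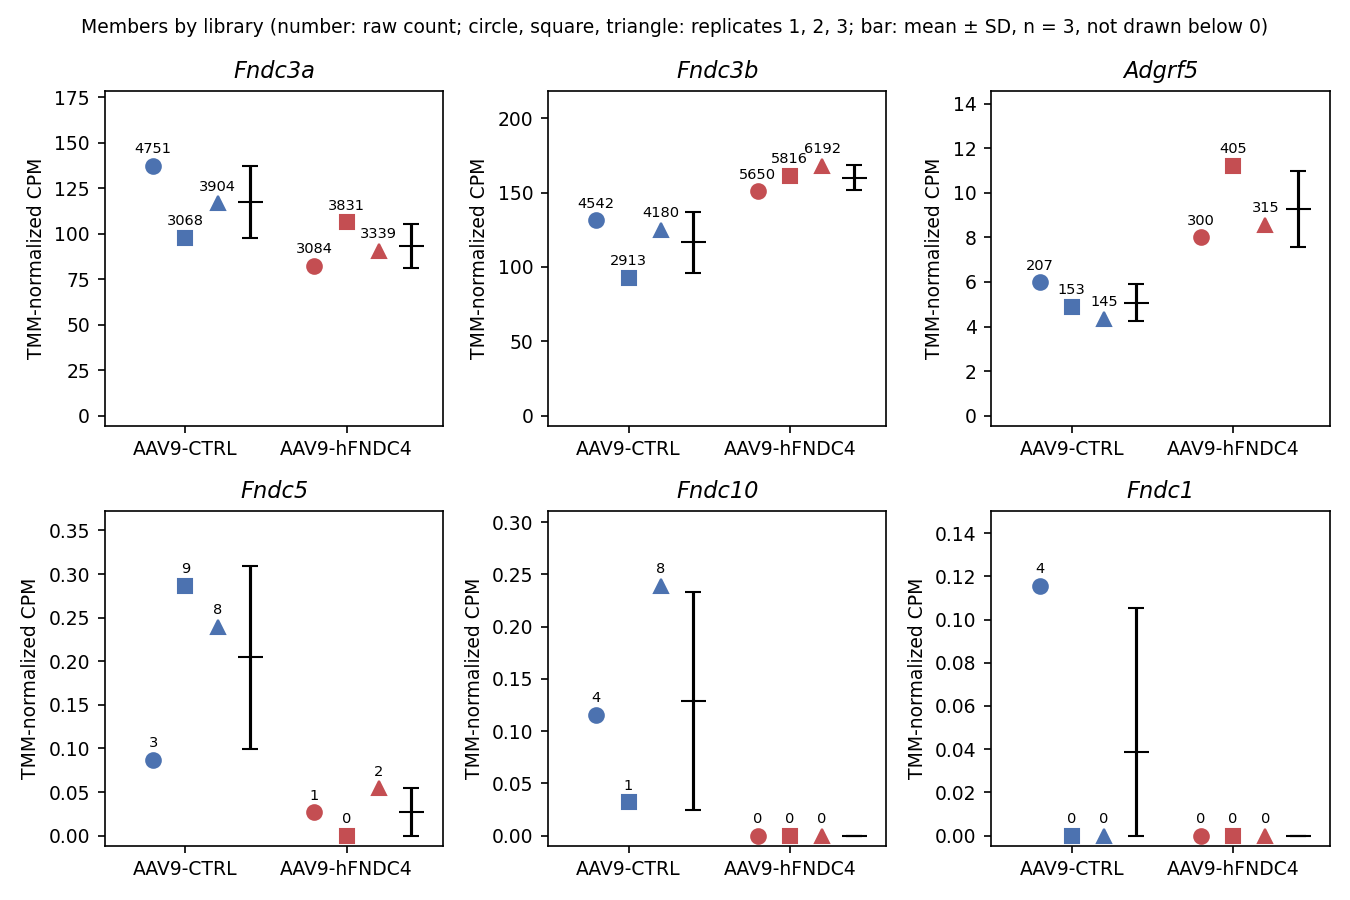
TMM-normalized CPM (vertical axes, linear, a different scale in each panel) of the 6 measured members in the 3 libraries of each group, with the raw count beside each point and the mean ± SD (n = 3, not drawn below 0) beside each group. Fndc3b and Adgrf5 are higher in the libraries labelled AAV9-hFNDC4 with no overlap, Fndc3a overlaps, and Fndc5, Fndc10 and Fndc1 have at most 9 counts in any library.

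Of the 3 members tested, 2 were higher and 0 lower (edgeR, adjusted; 1, Fndc3a, was lower at an unadjusted p of 0.0342, and DESeq2 also called 0 lower). Across all 14663 genes tested, 47.1% passed in either direction, 22.1% higher and 25% lower, and with 3 genes tested nothing is read from the count. The CPM ranges of the groups were apart in 56.6% of tested genes, and in Adgrf5 and Fndc3b among the 3 tested members.

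Fold changes over all genes went with transcript length, and the tested members are long. Adgrf5, with 8681 exon bases, lies in the longest 10% of tested genes. The median log2 fold change there was 0.45, and 52.5% of genes were called higher, beside 22.1% of all genes tested. Fndc3a (6143 bases) and Fndc3b (6952 bases) lie in the next 10% in length, with a median of 0.27 and 40.1% of genes called higher. With that trend removed, Adgrf5 and Fndc3b did not pass, as given above, and Fndc3a was lower, with -0.70 (adjusted p = 0.000611), and was also lower with GC content corrected (-0.52, adjusted p = 0.00336). The length correction moved the calls over all genes from 46.9% higher and 53.1% lower to 33.7% higher and 66.3% lower, with 42.9% of genes called. It also moved the median log2 fold change over all genes from 0.0073 to -0.093, and the GC correction moved that median to -0.075. The directions of the 3 genes were the same in all 15 alternatives run, and the length correction was the only one of them that ended the calls of Fndc3b and Adgrf5.

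**Figure D2:**
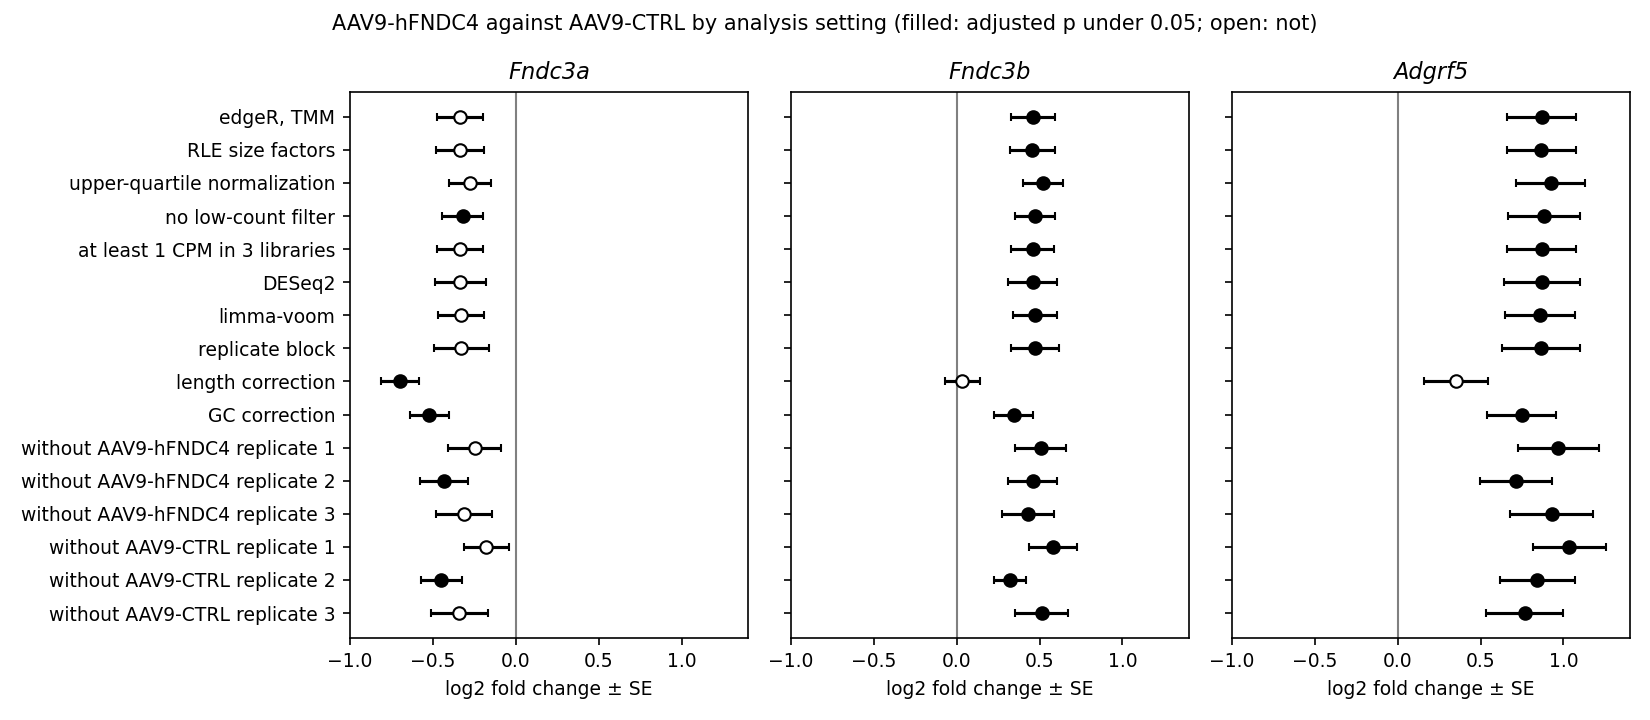
Log2 fold change ± SE (horizontal axis) of Fndc3a, Fndc3b and Adgrf5 in the edgeR test with TMM and in 15 alternatives (rows), with filled points for an adjusted p under 0.05. The length correction shifts all 3 genes to the left, to -0.70, 0.033 and 0.35.

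The balance between the 2 paralogs Fndc3a and Fndc3b, a comparison chosen after their values had been seen and so given without a test, shifted from Fndc3a to Fndc3b. In the libraries labelled AAV9-hFNDC4, the level of Fndc3b per length was 1.62, 1.34 and 1.64 times that of Fndc3a in replicates 1 to 3. In the libraries labelled AAV9-CTRL the ratio was 0.845, 0.839 and 0.946. Per length, Fndc3b thus stood above Fndc3a in each AAV9-hFNDC4 library and below it in each AAV9-CTRL library, with AAV9-hFNDC4 replicate 2 nearest to the other group. The ratios of raw counts were 1.83, 1.52 and 1.85 against 0.956, 0.949 and 1.07. In AAV9-CTRL replicate 3 the leading paralog therefore depends on the exon lengths used. The mean ratio was 1.53 ± 0.166 against 0.877 ± 0.0602, a 1.75-fold difference, and a ratio within a library is free of library size. The log2 fold change of Fndc3b exceeded that of Fndc3a by 0.79, and by 0.73 to 0.89 over the 15 alternatives, among them the length correction. The sum of both genes was 253 ± 17.7 CPM against 234 ± 39.7 CPM, a difference smaller than the spread between the libraries labelled AAV9-CTRL. The ratio shows unequal change of the 2 genes and not which one changed.

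**Figure D3:**
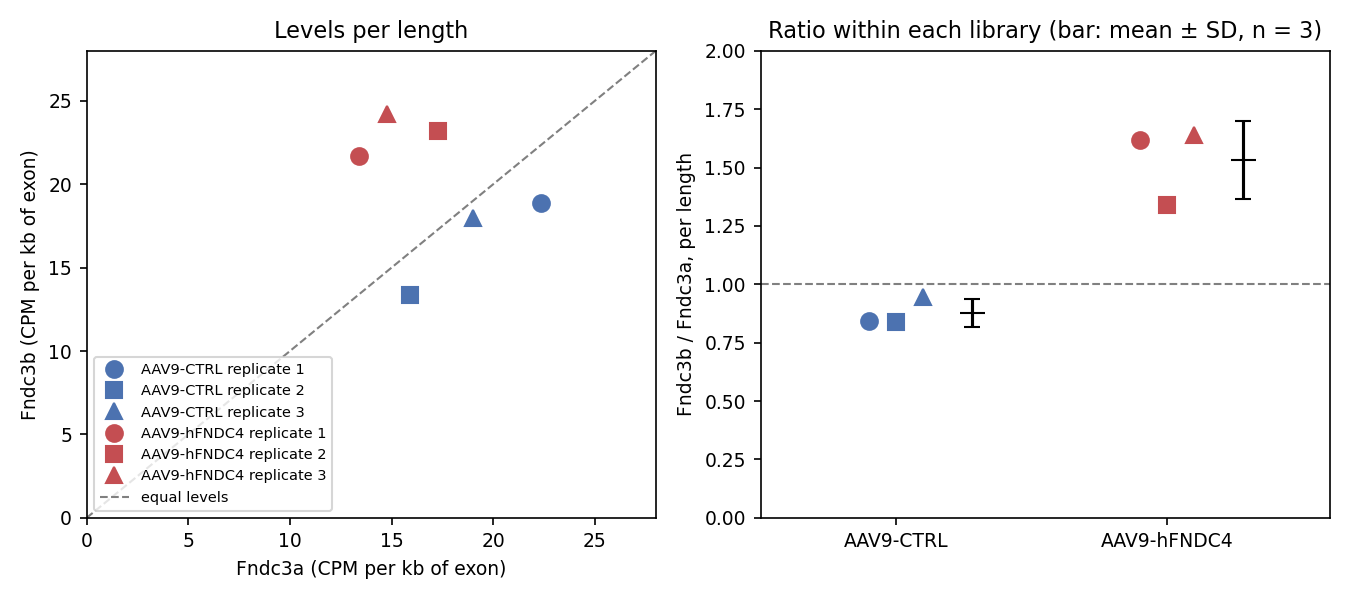
Left, level of Fndc3b against that of Fndc3a, both in CPM per kilobase of exon on linear axes, with 1 point per library and a dashed line of equal levels; right, their ratio in each library with the mean ± SD (n = 3). The 3 AAV9-hFNDC4 libraries lie above the line at ratios of 1.34 to 1.64, and the 3 AAV9-CTRL libraries below it at 0.839 to 0.946.

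Fndc5, Fndc10 and Fndc1 were close to the limit of detection in every library, did not pass the low-count filter and were not part of the test over all genes. Fndc5 (chromosome 4, 129136999 to 129144593, protein-coding), the irisin precursor of muscle, had 1, 0 and 2 counts in AAV9-hFNDC4 replicates 1 to 3 against 3, 9 and 8 in AAV9-CTRL replicates 1 to 3. Each AAV9-CTRL library thus had more counts than each AAV9-hFNDC4 library, at 0.204 ± 0.105 CPM against 0.027 ± 0.0272 CPM. The share of genes below the filter with groups apart in this way was not computed. Fewer genes of the whole table had a count under AAV9-hFNDC4 (18717 to 18863 against 20431 to 20870), so nothing particular to Fndc5 or Fndc10 is read from their low counts. The 3 counts against 20 gave a ratio of 7.40 in favour of AAV9-CTRL, with an exact 95% binomial interval from 2.20 to 38.9 that covers counting error only. Without AAV9-hFNDC4 replicate 3 it was 14.8 (2.37 to 613), on 1 count against 20, and without any other single library 4.98 to 9.65. Fndc10 (chromosome 4, 155694342 to 155696481, protein-coding), a membrane protein of the family whose role is little known, had 0 counts in each AAV9-hFNDC4 library against 4, 1 and 8. With the 0 counts under AAV9-hFNDC4 set to a floor of 3 counts per group, Fndc10 was 4.81-fold lower there. The 13 AAV9-CTRL counts were taken at face value, so this fold leaves out their counting error. The fold rests on few counts and is not a strict bound. It was 2.79-fold without AAV9-CTRL replicate 3, which held 8 of the 13 counts, and 3.18-fold and 3.21-fold without AAV9-hFNDC4 replicate 1 or 3. Fndc1 (chromosome 17, 7738569 to 7827302, protein-coding), known as activator of G protein signalling 8 and first found in ischemic rat heart, had 4 counts in AAV9-CTRL replicate 1 and 0 in the other 5 libraries.

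A count of 0 in an AAV9-hFNDC4 library allows a level of up to 0.0801 to 0.0831 CPM, taken as 3 counts at the normalized size of that library and for counting error only. In an exact two-sided permutation test of CPM, Fndc5 and Fndc10 each had p = 0.1, the smallest that 3 against 3 libraries allow, and Fndc1 had p = 1 (Benjamini-Hochberg adjusted over these 3 tests, 0.15, 0.15 and 1). Without the low-count filter, edgeR gave an adjusted p of 0.15 for Fndc5, 0.0512 for Fndc10 and 0.216 for Fndc1, and 30% of 25222 genes passed. DESeq2 gave an adjusted p of 0.134 for Fndc5 and 0.0843 for Fndc10, and none for Fndc1, with 37.2% of 19382 genes called. None of the 3 genes passed in either fit.

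Per length, Fndc3b and Fndc3a were the leading members in both groups. In the libraries labelled AAV9-hFNDC4, Fndc3b stood at 23.0 ± 1.25 and Fndc3a at 15.2 ± 1.96 CPM per kilobase, with no overlap between them. In those labelled AAV9-CTRL, Fndc3a stood at 19.1 ± 3.23 and Fndc3b at 16.7 ± 2.97 CPM per kilobase, closer than their spread over libraries. Adgrf5 followed far below in both groups, and then Fndc5 at 0.00977 ± 0.00983 against 0.074 ± 0.0378 CPM per kilobase and Fndc10 at 0 against 0.0603 ± 0.0488. Fndc5 and Fndc10 did not differ beyond their spread in the libraries labelled AAV9-CTRL. Averaged over all 6 libraries, Fndc3b was above 71.8% and Fndc3a above 68.1% of tested genes with a length.

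Of 5 further FNDC genes, Fndc9 and Fndc11 were not analysed here, and 0 of the 2 tested were called by edgeR, 0 at an unadjusted p under 0.05 and 0 by DESeq2. Fndc3c1, the X-linked relative of Fndc3a and Fndc3b, had 0 counts in all 6 libraries. Fndc7 (chromosome 3, 108853678 to 108890008) had 104, 76 and 74 counts in AAV9-hFNDC4 replicates 1 to 3 against 92, 82 and 91, or -0.21 on the log2 scale with an SE of 0.27 (quasi-likelihood F test of edgeR, adjusted p = 0.542). Fndc8 (chromosome 11, 82892124 to 82900801) had 48, 19 and 82 counts against 22, 50 and 39, with a log2 fold change of 0.25 (SE 0.53, adjusted p = 0.721). In both genes the groups overlapped, and the sign for Fndc8 rested on AAV9-hFNDC4 replicate 3, without which it was -0.31.

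Among the other adhesion G protein-coupled receptors, 14 of the 28 measured were tested, with 5 higher and 3 lower. That is 57.1% called beside 47.1% of all genes, with a median log2 fold change of 0.38 beside 0.0073 over all genes. The tested receptors have 2439 (Adgrg3) to 21142 (Adgrv1) exon bases, and the longest 10% of all tested genes had a median of 0.45. Celsr2, a cadherin-type receptor of planar cell polarity, was lower at 0.217 ± 0.0254 CPM against 2.99 ± 1.29 CPM, which is -3.76 on the log2 scale with an SE of 0.46. Adgrd1 was higher at 37.8 ± 6.40 against 21.5 ± 5.54 CPM, and Adgra2, a coactivator of Wnt7 signalling, at 66.5 ± 8.80 against 45.1 ± 6.72 CPM. Adgre5 (CD97), the most abundant of the tested receptors, was lower at 150 ± 20.3 against 203 ± 15 CPM, with 25.6% of its exon bases shared with other genes. With the length correction 4 receptors of the list were called, beside 42.9% of all genes. Adgrd1 (0.51, adjusted p = 0.088) and Adgra2 (0.23, adjusted p = 0.139) were then not called. Adgre5 was not called without AAV9-CTRL replicate 1 (adjusted p = 0.0505) or replicate 3 (0.0509).

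Genes of G protein and cyclic AMP signalling, through which ADGRF5 is known to act, went both ways, with 6 of 19 tested higher, 2 lower and 11 that did not pass (42.1% called beside 47.1% of all genes, median log2 fold change 0.17). Gnaq, the Gq alpha subunit, was higher at 86.3 ± 3.54 against 50.8 ± 6.40 CPM, or 0.76 on the log2 scale with an SE of 0.12 (quasi-likelihood F test of edgeR, adjusted p = 0.000329). The adenylyl cyclases Adcy9 (22.7 ± 1.15 against 10.6 ± 2.46 CPM) and Adcy3 (14.0 ± 0.474 against 7.81 ± 0.728 CPM) were higher, as was Prkacb, a catalytic subunit of protein kinase A (136 ± 11.7 against 94.4 ± 4.68 CPM). The 2 lower genes were Gnas, the Gs alpha subunit, and Prkar2a, a regulatory subunit of protein kinase A. Gnas, the most abundant gene of the list, was at 1577 ± 29.0 against 2160 ± 204 CPM (edgeR adjusted p = 0.00513). Prkar2a was at 188 ± 7.04 against 267 ± 63.4 CPM (edgeR adjusted p = 0.0142). Adcy3 shares 24.3% of its exon bases with Cenpo on the other strand, and Gnas 23.7% with Gm20721 and Nespas. Prkacb lost its call with the length correction (log2 fold change 0.23, adjusted p = 0.07), while Gnaq, Adcy9 and Adcy3 kept theirs in all 15 alternatives.

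In the list of the FNDC5 and irisin axis, 6 of 11 tested genes were higher and 1 lower (63.6% called beside 47.1% of all genes, median log2 fold change 0.49). Ppargc1a, the coactivator known to induce Fndc5 in muscle, was higher at 42.2 ± 2.11 against 21.5 ± 3.81 CPM, 0.97 on the log2 scale with an SE of 0.14. Esrra, a nuclear receptor that works with it, was lower at 21.2 ± 1.98 against 36.9 ± 4.17 CPM, -0.79 on the log2 scale with an SE of 0.13. Both chains of the irisin receptor integrin were higher, Itgav at 173 ± 21.4 against 108 ± 22.9 CPM and Itgb5 at 209 ± 3.08 against 147 ± 6.76 CPM. Itgb1, the most abundant gene of the list, had 384 ± 33.5 against 429 ± 60.7 CPM and did not pass. Itgb1 was called lower with the length correction (log2 fold change -0.31, adjusted p = 0.0355) and the GC correction (-0.33, adjusted p = 0.0291). It was also called lower without AAV9-CTRL replicate 2 (-0.27, adjusted p = 0.0493). Itgav was not called with the length correction (log2 fold change 0.26, adjusted p = 0.0864). Without AAV9-CTRL replicate 3, 4 genes of the list were called in place of 7, and 34.8% of all genes in place of 47.1%.

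**Figure D4:**
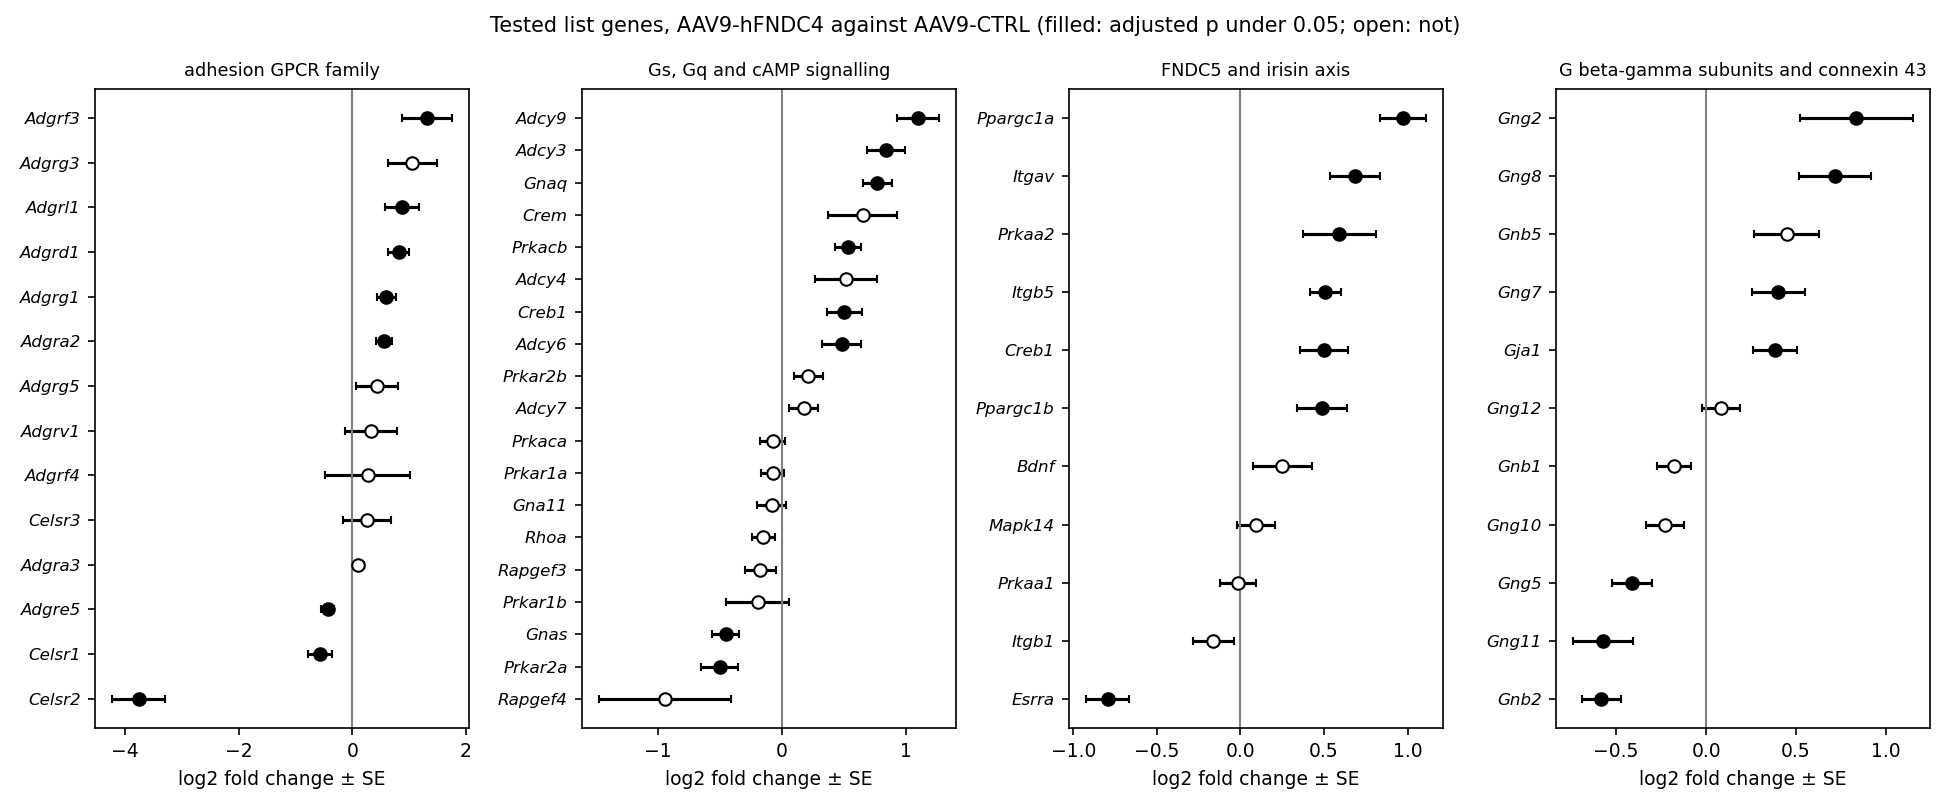
Log2 fold change ± SE (horizontal axes, a different scale in each panel) of the tested genes in 4 lists around the members, ordered by value, with filled points for an adjusted p under 0.05. Each list holds genes on both sides of 0, from Celsr2 at -3.76 to Adgrf3 at 1.31 among the receptors.

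G beta and gamma subunits and connexin 43, the partners described for FNDC1, had 4 of 11 tested genes higher and 3 lower (63.6% called beside 47.1% of all genes, median log2 fold change 0.082). Gnb2 was lower at 280 ± 9.0 against 419 ± 46.3 CPM, Gng5 at 95.3 ± 10.1 against 127 ± 7.46 CPM and Gng11 at 17.9 ± 0.459 against 26.7 ± 6.62 CPM. Gng8 was higher at 8.60 ± 1.57 against 5.24 ± 0.501 CPM. Gja1, the connexin 43 gene, was higher at 86.9 ± 10.9 against 66.7 ± 6.25 CPM (edgeR adjusted p = 0.023). The other higher genes were Gng7 (27.1 ± 4.31 against 20.6 ± 2.39 CPM) and Gng2 (7.17 ± 1.98 against 4.02 ± 1.87 CPM). This list had 4 calls after length correction, and also 4 without AAV9-hFNDC4 replicate 1 or without AAV9-CTRL replicate 3. Of all genes, 42.9%, 38.8% and 34.8% were called in these 3 settings, in that order. Gng11 was not called with the length correction (log2 fold change -0.21), Gng5 without AAV9-hFNDC4 replicate 1 (-0.35) and Gng8 without AAV9-hFNDC4 replicate 3 (0.60).

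Matrix proteins that carry fibronectin type III repeats, the fold that gives the FNDC genes their name, had 3 of 8 tested members higher and 2 lower (62.5% called beside 47.1% of all genes, median log2 fold change 0.39). Fn1, fibronectin itself, was higher at 5467 ± 533 against 1890 ± 111 CPM, 1.53 on the log2 scale with an SE of 0.12. Tnr, a tenascin, was higher at 4.32 ± 1.51 against 1.81 ± 0.520 CPM, and lost its call with the length correction (0.57, adjusted p = 0.252). Col7a1 was lower at 8.85 ± 0.576 against 19.6 ± 2.60 CPM, and Col12a1 at 2.40 ± 0.809 against 6.19 ± 1.13 CPM. The tested genes of the list have 5138 (Col20a1) to 12209 (Tnxb) exon bases, and the longest 10% of all tested genes had a median log2 fold change of 0.45. With the length correction 3 genes of the list were called, beside 42.9% of all genes. Fibroblast markers summed to 2697 to 3414 CPM under AAV9-hFNDC4 and to 1725 to 2137 CPM under AAV9-CTRL, with 6 of the 11 measured at a higher mean level and 5 at a lower one. The collagens Col1a2 and Col3a1 and the receptor Pdgfra passed as higher, while Dpt (508 counts against 819, edgeR adjusted p = 0.00845) and Mfap5 (774 against 968, 0.0404) were lower. Postn had 3 counts against 22, Dcn 7 against 2 and Lum 0 against 1. Their part in this list was not tested.

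The genes whose profiles over the 6 libraries were most like those of the tested members were found by the root mean square difference between log2 CPM values centred on each gene. Nearest to Adgrf5 were Atrx, a chromatin remodeler, at a distance of 0.042, and Akap11, an anchor of protein kinase A, at 0.058. Nearest to Fndc3b were Smchd1 at 0.037 and Ddx6 at 0.042, and nearest to Fndc3a were Tex10 at 0.041 and Prdm2 at 0.065. Median distances over 11447 candidate genes were 0.53 for Adgrf5, 0.40 for Fndc3b and 0.37 for Fndc3a. Among the members themselves, Fndc3b and Adgrf5 were 0.30 apart, Fndc3a and Fndc3b 0.41, and Fndc3a and Adgrf5 0.64. These distances describe 6 libraries that share a group difference over many genes.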

How the data were processed

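The authors deposited a table of raw counts, a row for each gene symbol and a column for each of the 6 libraries. The tools fastp, HISAT2, HTSeq, R 3.2.0 and DESeq2 and the build GRCm38 (mm10) are named per the submitters' processing notes. Parameters, annotation release and strand setting are not stated there.

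The analysis used edgeR 4.0.16 under R 4.3.3. The default filterByExpr kept 14663 of 27482 symbols. TMM normalization was applied, and groups were compared with the robust quasi-likelihood F test, with Benjamini-Hochberg adjustment over all genes tested and a threshold of 0.05. SEs are derived from the log2 fold change and F, as |log2 fold change|/√F. Marker sums use plain library totals. Positions, exon lengths and exon overlaps come from GENCODE vM21 basic (GRCm38), with lengths for 92.5% of tested genes. Upstream sequences come from RefSeq.

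Alternatives were RLE and upper-quartile normalization, no low-count filter, DESeq2 1.42.0, a filter of 1 CPM reached by 3 libraries, voom from limma 3.58.1, the replicate number as a block, loess corrections for length and GC content (span 0.4), and leaving out each library. The quasi-likelihood test and the RLE, upper-quartile, voom and replicate block fits were first checked on simulated counts. Those counts held far fewer changed genes than were called here and no length trend, and the other alternatives were not checked. Every value given comes from the deposited counts. Members and lists were chosen with earlier results of these data known. Named from each list were the 4 genes with the smallest p among those that passed, and the most abundant gene where it did not pass. Gnas, Prkar2a, Gja1, Gng2 and Gng7 were added after their values were seen, without their values in the alternatives. Cdh5 and other single marker genes were picked after their values were seen.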

Additional observations from a re-analysis of the deposited data

How the results depend on the processing

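Fndc3b and Adgrf5 kept their call in 14 of 15 alternatives and lost it with the length correction, at log2 fold changes of 0.033 and 0.35. Fndc3a passed in 5 alternatives, at -0.32 without the low-count filter, -0.70 with the length correction, -0.52 with the GC correction, and at -0.43 and -0.45 without AAV9-hFNDC4 replicate 2 or AAV9-CTRL replicate 2. Members called higher were therefore 0 with the length correction, and members called lower were 1 in those 5 alternatives. Leaving out 1 library gave ranges of -0.45 to -0.18 for Fndc3a, 0.32 to 0.58 for Fndc3b and 0.71 to 1.04 for Adgrf5, with 0 to 1 members lower. The length correction left 2122 genes higher in place of 3240, 4 adhesion receptors in place of 8, 4 G protein subunit genes in place of 7 and 3 matrix genes in place of 5. Of all genes, 42.9% were called with it in place of 47.1%. Without 1 library there were 5 to 9 adhesion receptors, 4 to 8 irisin axis genes and 4 to 7 G protein subunit genes called. The share of all genes called was then 34.8% to 48.9%. Fndc8 was -0.31 without AAV9-hFNDC4 replicate 3, in a range of -0.31 to 0.64 over the left-out libraries. The cause of these shifts was not tested. The libraries share only a replicate number, with correlations of deviations of 0.0012, -0.11 and 0.029 between same-numbered libraries. With that number as a replicate block, 39.2% of genes were called in place of 47.1%, Fndc3a was at -0.33, Fndc3b at 0.47 and Adgrf5 at 0.87, and no member changed its call. Depth limits what can be said of Fndc1, Fndc5 and Fndc10, each with at most 9 counts in a library.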
